A study of Homo sapiens with 2 samples.

Results

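Numbered intergenic long non-coding RNA genes are the genes whose symbol is LINC followed only by digits. A table of 19029 genes holds 279 of them. The 70 described here were chosen by symbol and by their measured counts, which had to reach at least 40 over 2 libraries together, and the other 209 stayed under that floor. The same floor was passed by 12831 genes of the table, 11495 of them protein-coding. The libraries were made from total RNA of BT549, an established human triple-negative breast cancer cell line, either overexpressing SNHG15, a small nucleolar RNA host gene, or carrying a control vector. Each group was 1 library of this 1 cell line, so the difference between the groups has no replicate check and no p-value is given. The labels do not say whether the overexpressing cells were 1 clone or a pool.

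Long intergenic non-coding RNAs are transcribed by RNA polymerase II from between protein-coding genes, are usually spliced and polyadenylated, and hold no long conserved open reading frame. They tend to be less abundant and more restricted to particular cell types than messenger RNAs. Some act on the gene beside them, often from a start site that faces it head to head. Others bind proteins or microRNAs away from their own locus. The number in a LINC symbol says nothing of function.

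The SNHG15 library held 16570496 counts and the vector library 20799017. SNHG15 itself had 34450 counts against 466, a ratio of 85.6 (78.1 to 94.0), which is the direction of its label. Ratios are SNHG15 over vector throughout, on counts scaled by TMM, which sets 1 factor per library assuming that most genes are unchanged. The range in parentheses is a 95% Clopper-Pearson interval that covers counting error only. All 10 mesenchymal markers listed passed the floor, whereas 1 of 8 epithelial markers and none of 3 endothelial markers did. The epithelial one, CLDN7, had 2 counts with SNHG15 and 40 with the vector, so it reached the floor on the vector library alone. Of 7 luminal markers 3 passed it, the keratins KRT18 (12117 and 23962 counts) and KRT8 (453 and 730) and the transcription factor GATA3 (1125 and 1171). The haematopoietic marker CD14 had 133 and 347 counts, and the other 3 haematopoietic markers were not in the table. In a bulk library, a smaller number of expressing cells and less RNA per cell cannot be told apart.

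The LINC genes were low. Per length, their median FPKM (reads per length and library size, as deposited) was 0.832 with SNHG15 and 0.770 with the vector, against 2.57 and 2.34 for protein-coding genes at the same floor. All 279 LINC genes together made up 0.0445% of SNHG15-library counts and 0.0472% of vector-library counts. The counts were concentrated in few members. The 10 members with the highest mean CPM (counts scaled to a common library size) held 52.0% of the members' counts with SNHG15 and 55.7% with the vector. LINC00963, studied in prostate cancer, alone held 13.2% and 20.4%, with 850 and 1751 counts. LINC02693, which GENCODE types as protein-coding despite its name, had 338 and 421 counts and a ratio of 0.929 (0.803 to 1.08). LINC00339, 21.4 kb from the small GTPase gene CDC42, had 248 and 263 counts and a ratio of 1.09 (0.914 to 1.30).

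By mean FPKM the order was different. LINC00857, whose gene lies 2.14 kb from ANXA11, a calcium-dependent membrane-binding protein, led with 4.15 FPKM with SNHG15 and 4.26 with the vector. LINC00960 followed with 4.41 and 3.74 FPKM. LINC01444 had 4.85 and 2.34 FPKM. These 3 stood close by mean level, and their order was not the same in both libraries. LINC01842 had 3.30 and 3.44 FPKM, LINC00963 2.52 and 4.14, and LINC00839 2.89 and 2.93. LINC01023, the shortest member with 436 exonic bases, reached 3.60 and 2.21 FPKM from only 26 and 20 counts. LINC01816, LINC00460 and LINC01006 completed the first 10. At the other end, 32 of the 70 members had fewer than 100 counts in both libraries together, and 1 had more than 1000.

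**Figure D1:**
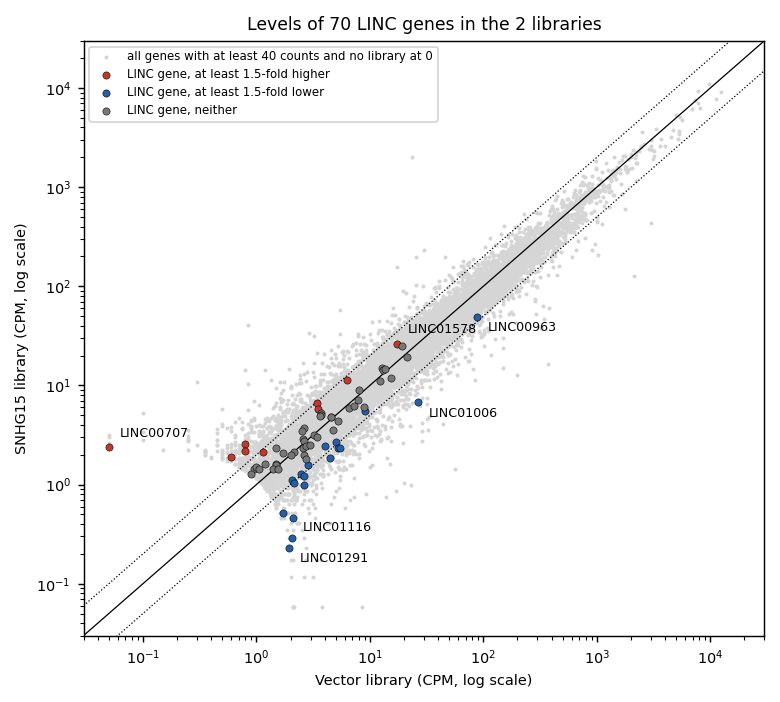
Level of each gene in the vector library (x axis, CPM, log scale) and in the SNHG15 library (y axis, CPM, log scale). Grey dots are all genes at the count floor with no library at 0, coloured points are the 70 LINC genes by direction, the solid line marks equal levels and the dotted lines a ratio of 2 in either direction. LINC00963 lies highest, at 87.7 CPM in the vector library and 49.3 in the SNHG15 library, and most LINC genes lie below 10 CPM in both.

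The members did not move as a block. Their median log2 ratio (prior count of 2) was -0.03 against 0.01 for all genes at the floor, and it was 0.08 when scaled by library totals, which moved the median of all genes by 0.12. By point ratio 33 members lay above 1 and 37 below, and 39 of the 70 intervals included 1. A member was called beyond 2-fold if no value of its interval was nearer to 1 than 2 or 0.5. That held for 5 members, 1 higher and 4 lower, or 7.14%, against 4.61% of all genes at the floor (2.14% higher and 2.47% lower). A second, softer rule asked for an interval that excluded 1 and a ratio of at least 1.5-fold in either direction. It was met by 27 members, 38.6%, against 25.5% of all genes. Of these, 9 were higher (13.2% of all genes were) and 18 lower (12.2% of all genes were). Scaled by library totals the split was 13 higher and 16 lower, or 18.6% and 22.9% of the members, and that of all genes was 18.3% higher and 8.97% lower.

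**Figure D2:**
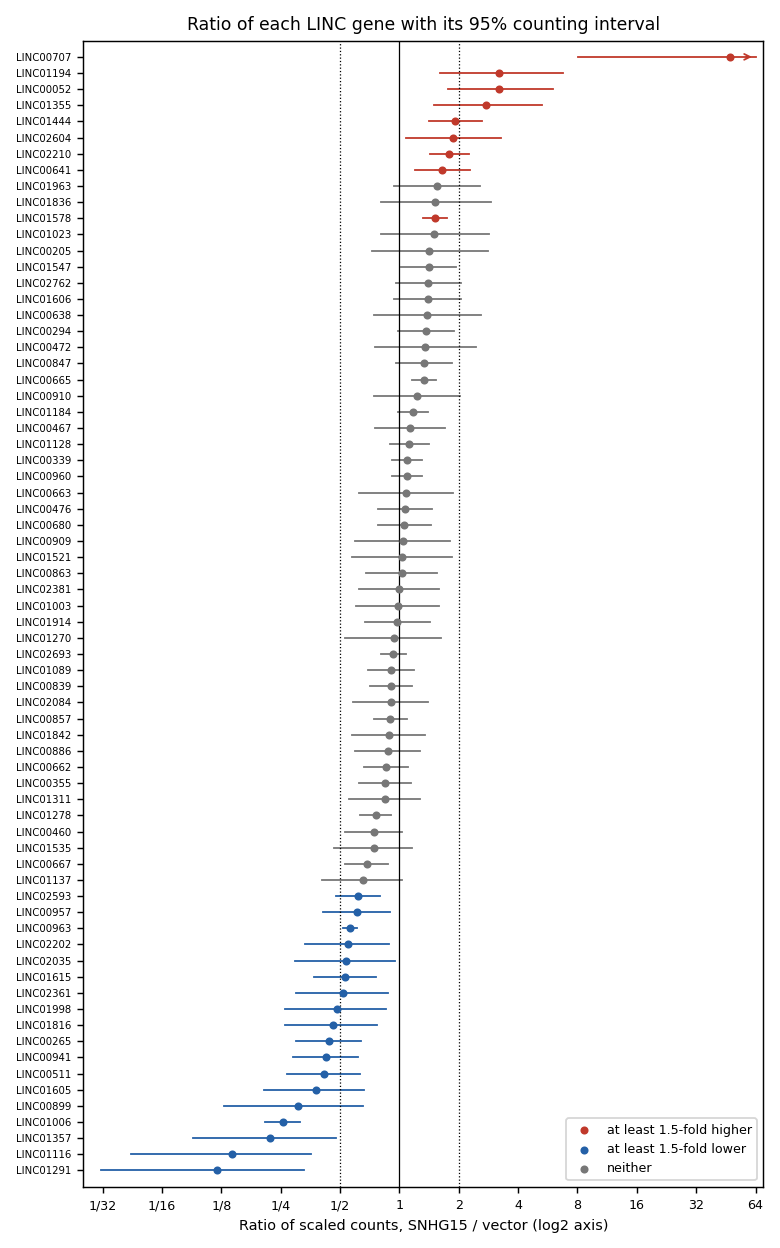
Ratio of TMM-scaled counts, SNHG15 over vector (x axis, log2 scale), for each of the 70 LINC genes ordered by ratio. Points are ratios, bars are 95% counting intervals from 1 library per group, and dotted lines mark 2-fold. LINC00707 stands apart at the top with a bar that runs past the axis, and LINC01006 has the narrowest bar among the members beyond 2-fold.

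The only member beyond 2-fold higher was LINC00707, a long intergenic RNA studied in lung adenocarcinoma, on chromosome 10 from 6779598 to 6842906 (hg38, plus strand). It was counted 41 times with SNHG15 and 1 time with the vector, or 2.38 and 0.0501 CPM. The ratio was 47.5 with a very wide interval (8.06 to 1920). With 42 counts in all it passed the floor on the SNHG15 library alone. Its nearest expressed protein-coding gene (mean of at least 1 CPM), the glycolytic regulator PFKFB3, lay 544 kb away with 1294 and 1409 counts and a ratio of 1.06 (0.985 to 1.15).

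Among the members beyond 2-fold lower, LINC01006 had by far the most counts. It was counted 117 times with SNHG15 and 527 times with the vector, or 6.78 and 26.4 CPM, and a ratio of 0.257 (0.209 to 0.315). LINC01357 had 8 and 42 counts and a ratio of 0.221 (0.0894 to 0.475). Scaled by library totals its upper bound was 0.515, just inside 2-fold. LINC01116, which lies in the region of the HOXD genes, had 5 and 41 counts and a ratio of 0.141 (0.0435 to 0.357). LINC01291 had 4 and 39 counts and a ratio of 0.119 (0.0308 to 0.329). The last 3 had at most 50 counts in all and reached or nearly reached the floor on the vector library alone, so among members this low a large ratio goes with having passed. All 3 fell short of 100 counts, and LINC01006 was the only member of 38 with 100 counts or more that was beyond 2-fold.

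RefSeq promoter windows run from 250 bases before to 50 after the annotated start (GRCh38.p14). Those of 3 of these 4 lower members are printed, the ones for which a window was found. RefSeq lists LINC01006 as RNF32-DT. The table used has no entry for LINC01291 or LINC00707. The windows lie at chr7:156640486-156640785 (minus strand) for LINC01006, chr1:112849607-112849906 (plus strand) for LINC01357 and chr2:176637560-176637859 (minus strand) for LINC01116. Capitals mark GGGCGG, the letters of a GC box, read on either strand (so also CCGCCC), and neighbouring matches can adjoin.
LINC01006: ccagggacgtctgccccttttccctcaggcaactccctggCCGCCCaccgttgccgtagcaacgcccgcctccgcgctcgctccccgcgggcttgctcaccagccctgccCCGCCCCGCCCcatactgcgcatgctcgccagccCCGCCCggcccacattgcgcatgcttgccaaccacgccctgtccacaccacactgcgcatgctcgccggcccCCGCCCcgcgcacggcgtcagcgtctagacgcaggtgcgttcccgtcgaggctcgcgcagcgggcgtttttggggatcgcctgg
LINC01357: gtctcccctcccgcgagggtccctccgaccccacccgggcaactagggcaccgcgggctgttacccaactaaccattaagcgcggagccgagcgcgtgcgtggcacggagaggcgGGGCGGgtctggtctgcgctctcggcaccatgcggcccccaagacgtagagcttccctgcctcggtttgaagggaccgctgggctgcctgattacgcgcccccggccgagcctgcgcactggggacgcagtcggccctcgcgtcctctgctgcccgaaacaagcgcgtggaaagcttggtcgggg
LINC01116: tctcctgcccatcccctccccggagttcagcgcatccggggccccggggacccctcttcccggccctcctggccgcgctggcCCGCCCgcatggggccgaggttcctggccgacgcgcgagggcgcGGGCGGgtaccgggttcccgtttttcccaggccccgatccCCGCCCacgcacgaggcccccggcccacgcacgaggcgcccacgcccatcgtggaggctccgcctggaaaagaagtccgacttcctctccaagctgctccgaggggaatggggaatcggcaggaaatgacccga
The windows held 37, 34 and 34 CpG dinucleotides in that order. The letters GGGCGG occurred 5 times in the window of LINC01006, 1 time in that of LINC01357 and 3 times in that of LINC01116. None of the 3 held TATAAA or CCAAT.

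Below the 2-fold rule, 8 more members were at least 1.5-fold higher. LINC00052, studied in breast cancer cells, had 44 and 16 counts and a ratio of 3.18 (1.76 to 6.04). LINC01194 had 33 and 12 counts and a ratio of 3.18 (1.60 to 6.77). LINC01355 had 38 and 16 counts and a ratio of 2.75 (1.497 to 5.28). These 3 had at most 60 counts in all, so their intervals span several fold. LINC01444 was better counted, with 114 and 69 counts and a ratio of 1.91 (1.41 to 2.62). LINC02210, with 195 and 126 counts, had a ratio of 1.79 (1.42 to 2.26). LINC00641 had 100 and 70 counts and a ratio of 1.65 (1.21 to 2.28). The best counted of the higher members was LINC01578, with 457 and 348 counts and a ratio of 1.52 (1.32 to 1.75). With DESeq2 size factors its ratio was 1.48, under the rule. LINC02604 had 37 and 23 counts and a ratio of 1.86 (1.08 to 3.28), and its interval included 1 once the vector library was thinned to the depth of the other (1.63, 0.927 to 2.92).

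The other 14 lower members ranged in ratio from 0.306 for LINC00899 to 0.617 for LINC02593. LINC00963, the member with the most counts, had 49.3 and 87.7 CPM and the narrowest interval of all, 0.562 (0.517 to 0.610). LINC00511, reported as an oncogenic RNA in breast cancer, had 32 and 89 counts and a ratio of 0.416 (0.269 to 0.630). LINC00941 had 40 and 109 counts and a ratio of 0.425 (0.288 to 0.616). LINC00265 was close to it, with 40 and 105 counts and a ratio of 0.441 (0.298 to 0.640). LINC01605 had 17 and 52 counts and a ratio of 0.378 (0.205 to 0.665). The table also lists AC124067.2 on the same strand within its span, with 3 and 40 counts. The next 2 lower calls depended on scaling or depth. LINC02035 had 19 and 41 counts and a ratio of 0.536 (0.294 to 0.946), and its interval included 1 with library totals (0.582, 0.319 to 1.03) and after thinning (0.565, 0.302 to 1.03). LINC02593 had 96 and 180 counts and a ratio of 0.617, which was 0.669 with library totals.

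In the authors' deposited table, whose p-values come from 1 library per group with an assumed spread, 5 members were called UP and 9 DOWN at a q of 0.05 and a log2 change of 1. Of all genes at the floor, 9.57% were so called, 5.87% UP and 3.7% DOWN. All 14 were among the 27 members at least 1.5-fold different here.

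Both rules depend on counting depth, so members were set beside other classes within bands of counts. With 40 to 99 counts, 4 of 32 members were beyond 2-fold, against 6.96% of all 1710 genes. In the same band, 5 of the 32 were at least 1.5-fold higher and 10 lower, or 15.6% and 31.2%. Other genes with non-coding names (antisense-named and clone-named genes) gave 9.44% higher and 18.9% lower of 286. Protein-coding genes in this band leaned the other way, with 25.3% higher and 13.6% lower of 1185. From 100 to under 300 counts, 2 of 26 members were higher and 6 lower, against 9.596% and 23.2% of 198 other non-coding names and 22.6% and 11.99% of 2318 protein-coding genes. From 300 to under 1000 counts, 2 of 11 members were higher and 1 lower, while 5.71% of 70 other non-coding names were higher and 21.4% lower, and 14.3% of 2991 protein-coding genes higher and 10.1% lower. In that band the few members leaned the other way from the other non-coding names. Over all bands 23.7% of 173 antisense-named genes and 18.2% of 423 clone-named genes were lower, beside 25.7% of the members and 11.6% of protein-coding genes.

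**Figure D3:**
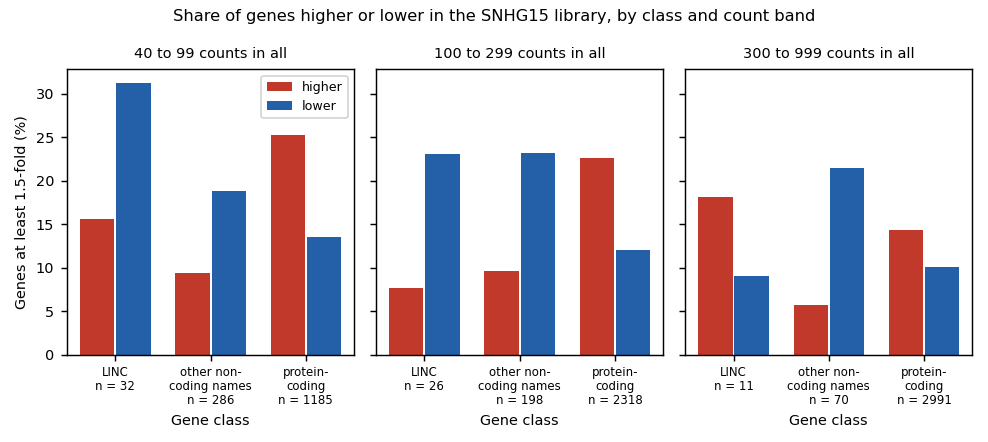
Share of genes (y axis, percent) at least 1.5-fold higher (red) or lower (blue) in the SNHG15 library, for LINC genes, other non-coding names and protein-coding genes (x axis), in 3 bands of summed counts. In both bands under 300 counts the lower bar exceeds the higher bar for LINC genes and other non-coding names and falls short of it for protein-coding genes. The band from 300 to under 1000 counts holds only 11 LINC genes, with more higher than lower.

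Base composition moved with the ratio in each set compared. The exonic GC content (GENCODE 29) had a median of 41.6% in the 9 higher members, 51.5% in the 18 lower members and 49.7% in the other 43. Across the 70 members, the Spearman correlation between GC content and log2 ratio was -0.22, and across 12794 genes at the floor it was -0.32. Genes of 1 library pair share its depth and preparation and are not replicates, and the part of GC content in the members' ratios was not tested beyond removing the trend, which left their median at -0.02.

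Position relative to protein-coding genes sorted the members into 6 classes. The loci overlapped an expressed protein-coding gene on the same strand in 3 members and only on the opposite strand in 4. Another 5 faced such a gene head to head with starts within 1 kb (divergent), 15 lay within 10 kb, 27 within 10 to 100 kb and 16 farther. Whether the counting used strand is unknown. Without strand, reads from overlapping exons of opposite strands cannot be told apart, and on the same strand they cannot be in either case. Against every gene in the table, 25 members overlapped at least 1 on either strand and 45 none.

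The same-strand overlaps were LINC00294 with TCP11L1, LINC01089 with RHOF, a small GTPase gene, and LINC01278 with SPIN4. Exons overlap in the pair of LINC01089 and RHOF, but not in those with TCP11L1 and SPIN4. Exons of LINC00294 overlap those of CSTF3 on the opposite strand, which had 291 and 318 counts and a ratio of 1.06 (0.901 to 1.25). LINC00294 had 87 and 74 counts and a ratio of 1.36 (0.987 to 1.88), while TCP11L1 had 92 and 170 and a ratio of 0.627 (0.481 to 0.812). LINC01089, reported as an inhibitor of breast cancer metastasis, had 103 and 131 counts and a ratio of 0.910 (0.696 to 1.19), beside 732 and 798 for RHOF (1.06, 0.959 to 1.18). LINC01278 had 203 and 309 counts and a ratio of 0.761 (0.634 to 0.911), beside 82 and 67 for SPIN4 (1.42, 1.01 to 1.99). In all 3 pairs the partners' ratios lay on opposite sides of 1. On opposite strands, LINC01006 overlapped RNF32, a RING finger gene with 18 and 20 counts and a ratio of 1.04 (0.520 to 2.07). The other 3, LINC00476 with ERCC6L2, LINC00909 with ZNF407 and LINC02381 with SMUG1, had member ratios between 0.996 and 1.07. Exons overlap in the pairs of LINC01006 and LINC00476, but not in those of LINC00909 and LINC02381.

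The promoter windows of the 5 divergent members are printed since each reaches toward the protein-coding start it faces. They lie at chr21:44939864-44940163 (minus strand) for LINC01547, chr5:128083126-128083425 (minus strand) for LINC01184, chr22:31346509-31346808 (plus strand) for LINC01521, chr1:37474394-37474693 (minus strand) for LINC01137 and chr5:159100233-159100532 (plus strand) for LINC02202. Capitals mark the letters GGGCGG, then CCAAT (the CCAAT box) and then TATAAA (the TATA box), each on either strand.
LINC01547: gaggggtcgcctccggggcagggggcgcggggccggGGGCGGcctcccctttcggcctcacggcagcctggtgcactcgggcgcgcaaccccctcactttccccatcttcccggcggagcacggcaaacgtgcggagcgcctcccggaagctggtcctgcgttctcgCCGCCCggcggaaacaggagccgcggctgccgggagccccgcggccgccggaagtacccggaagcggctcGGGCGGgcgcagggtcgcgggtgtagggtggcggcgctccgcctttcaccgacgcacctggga
LINC01184: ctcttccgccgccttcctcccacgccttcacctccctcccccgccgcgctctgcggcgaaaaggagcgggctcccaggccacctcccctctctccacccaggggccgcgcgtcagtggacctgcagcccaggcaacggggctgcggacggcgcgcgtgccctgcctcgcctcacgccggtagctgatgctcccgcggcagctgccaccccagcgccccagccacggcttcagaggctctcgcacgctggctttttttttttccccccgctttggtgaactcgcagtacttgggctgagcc
LINC01521: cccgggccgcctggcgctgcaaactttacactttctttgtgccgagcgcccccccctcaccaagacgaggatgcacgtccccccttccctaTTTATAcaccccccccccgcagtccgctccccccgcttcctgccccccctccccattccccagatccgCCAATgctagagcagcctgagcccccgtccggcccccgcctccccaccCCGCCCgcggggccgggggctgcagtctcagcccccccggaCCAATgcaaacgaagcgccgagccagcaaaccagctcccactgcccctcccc
LINC01137: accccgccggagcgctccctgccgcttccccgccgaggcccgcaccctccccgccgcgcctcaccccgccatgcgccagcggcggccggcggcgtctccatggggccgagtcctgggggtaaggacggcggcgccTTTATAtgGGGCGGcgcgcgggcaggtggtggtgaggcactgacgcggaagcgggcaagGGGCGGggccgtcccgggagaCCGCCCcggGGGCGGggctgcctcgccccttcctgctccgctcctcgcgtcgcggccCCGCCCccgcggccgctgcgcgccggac
LINC02202: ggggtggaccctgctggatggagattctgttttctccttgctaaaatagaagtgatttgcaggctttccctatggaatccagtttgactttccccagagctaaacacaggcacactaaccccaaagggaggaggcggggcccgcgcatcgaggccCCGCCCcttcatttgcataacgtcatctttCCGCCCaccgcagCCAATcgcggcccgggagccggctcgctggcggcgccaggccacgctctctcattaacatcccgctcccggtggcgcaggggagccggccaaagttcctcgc
They held 42, 29, 22, 47 and 21 CpG dinucleotides in that order, and none of the 3 motifs was found in the window of LINC01184. RefSeq lists LINC01184 as SLC12A2-DT and LINC01137 as LITATS1.

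Of the divergent pairs, LINC02202 and the transcription factor gene EBF1, with starts 722 bases apart, were both lower. LINC02202 had 27 and 57 counts and a ratio of 0.548 (0.333 to 0.881). EBF1 had 44 and 105 counts and a ratio of 0.485 (0.333 to 0.696). The pair LINC01547 and FAM207A, with starts only 97 bases apart, went apart: LINC01547 had 90 and 74 counts and a ratio of 1.41 (1.02 to 1.94), and FAM207A had 649 and 1456 and a ratio of 0.516 (0.470 to 0.566). LINC01184 had 261 and 258 counts and a ratio of 1.17 (0.982 to 1.40), beside SLC12A2, the sodium, potassium and chloride cotransporter, with 63 and 48 (1.52, 1.03 to 2.26). LINC01137 had 31 and 55 counts and a ratio of 0.653 (0.406 to 1.03), beside the RNase gene ZC3H12A at 0.764 (0.687 to 0.849). LINC01521 had 25 and 28 counts and a ratio of 1.03 (0.578 to 1.84), beside PATZ1 at 1.12 (1.03 to 1.22). By point ratio 4 of these 5 pairs lay on the same side of 1, and both partners were called in 1 pair. A start within 1 kb of an opposite-strand start was also found in 4 members of the overlapping classes (LINC01006, LINC00476, LINC00909, and LINC01089 with SETD1B), and only LINC00909 and ZNF407 lay on the same side. Over all 9 such pairs the count was 5.

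Among members within 10 kb of their neighbour, LINC01578 ended 488 bases before CHD2, a chromatin remodeller. Exons of LINC01578 overlap those of AC013394.1, a protein-coding gene model on the same strand with 15 and 0 counts. RefSeq lists LINC01578 as CHASERR, an RNA known to limit CHD2 expression from the same chromosome. Both ratios lay above 1: 1.52 (1.32 to 1.75) for LINC01578 and 1.496 (1.27 to 1.77) for CHD2, with 332 and 257 counts. LINC00641 lay 2.24 kb from HNRNPC, an RNA-binding protein gene with 6083 and 4429 counts and a ratio of 1.59 (1.53 to 1.65), near the 1.65 of LINC00641. LINC02593 lay 3.86 kb from SAMD11, which had 586 and 1869 counts and a ratio of 0.363 (0.330 to 0.398). LINC00511 went against its neighbour SLC39A11, a zinc transporter gene 5.48 kb away with 580 and 234 counts and a ratio of 2.87 (2.46 to 3.35). LINC02084 lay 1.94 kb from EOMES, a T-box factor gene with 68 and 30 counts and a ratio of 2.62 (1.68 to 4.18), while LINC02084 itself had 40 and 51 and 0.908 (0.585 to 1.40).

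At larger distances both patterns were found again. LINC00899 and WNT7B, a Wnt ligand gene 62.8 kb away with 226 and 832 counts, had ratios of 0.306 (0.129 to 0.652) and 0.314 (0.270 to 0.365). LINC01605 and ZNF703, a breast cancer gene 142 kb away with 577 and 2026 counts, had ratios of 0.378 and 0.330 (0.300 to 0.362). By contrast, LINC01615 was lower with 46 and 100 counts and a ratio of 0.533 (0.367 to 0.762), whereas THBS2, the thrombospondin gene 52.9 kb away, had 2724 and 345 counts and a ratio of 9.14 (8.17 to 10.3). LINC01357 was also lower while SLC16A1, a lactate transporter gene 34.0 kb away with 1376 and 886 counts, had a ratio of 1.80 (1.65 to 1.96). LINC00052 was higher and the neurotrophin receptor gene NTRK3, 280 kb away, had 421 and 805 counts and a ratio of 0.605 (0.537 to 0.682). LINC01116 was beyond 2-fold lower, but its neighbour MTX2 had a ratio of 1.05 (0.882 to 1.24). LINC01291 was also beyond 2-fold lower, and its neighbour POLE4 lay on the same side of 1, at 0.707 (0.661 to 0.757).

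Over all pairs, the member and its nearest expressed protein-coding gene lay on the same side of 1 in 42 of 70, or 60%. For all expressed protein-coding genes and their nearest other one the share was 61.0% of 11566. The Spearman correlation of the log2 ratios was 0.11 over the 70 pairs (Pearson 0.05) and 0.28 over the protein-coding pairs (Pearson 0.19), as a description, since all pairs share the same 2 libraries. Of the 18 lower members, 4 had a lower and 3 a higher neighbour, and of the 9 higher members 1 had a higher and 1 a lower neighbour. Among the 43 members called neither, 9 had a higher and 8 a lower neighbour. Of the 69 different neighbours, 18.8% were higher and 17.4% lower, against 13.8% and 11.6% of all expressed protein-coding genes. Against the median of all expressed protein-coding genes within 1 Mb, which 68 members had, the Spearman correlation was -0.02.

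**Figure D4:**
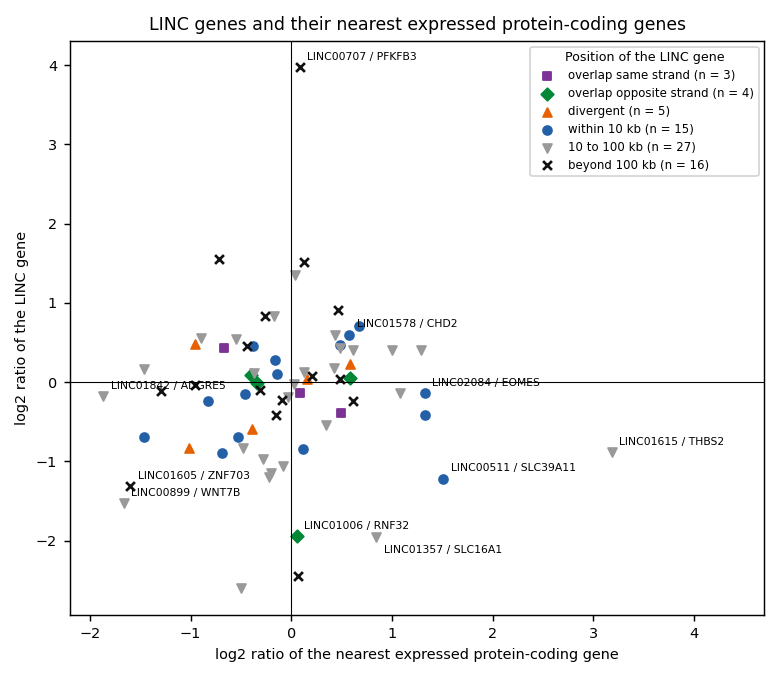
log2 ratio (SNHG15 over vector) of each of the 70 LINC genes (y axis) against that of its nearest expressed protein-coding gene (x axis), with symbols for the position class. Points fill all 4 quadrants, with LINC00899 and WNT7B low together and LINC01615 and THBS2 far apart. LINC00707 lies at the top, beside a neighbour near 0.

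The members lay on 21 chromosomes, with at most 7 on 1. On chromosome 7, which holds SNHG15, 1 member was higher and 3 were lower of 5, with a median log2 ratio of -0.69 beside -0.27 for all 597 genes of that chromosome at the floor. LINC00957, the member nearest to SNHG15 at 0.944 Mb, had 42 and 80 counts and a ratio of 0.608 (0.408 to 0.894). On chromosome 2, 3 of 5 members were lower while the median of all genes was 0.00. On chromosome 12 all 4 members lay below 1, 2 of them called lower, with all genes at a median of 0.19. Of all genes, 21.8% were called lower on chromosome 7, 10.0% on chromosome 2 and 6.41% on chromosome 12. Other chromosomes went the other way. Both members on chromosome 11 lay above 1, with a median log2 ratio of 0.45 beside -0.23 for all genes, as did both on chromosome 21 (0.47 beside -0.16). On chromosome 15 both members were called higher, as were 16.7% of all its genes, and 4 of 5 members of chromosome 5 lay above 1, where all genes had a median of 0.33. Centring each member on its chromosome's median left 5 members beyond 2-fold and 30 at least 1.5-fold different. The share of all genes called after such centring was not computed.

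Promoter windows were found for 57 of the 70 members in the RefSeq table, 50 by symbol and 7 by a synonym. RefSeq's start lay within 50 bases of the deposited one in 37 members, but more than 300 bases away in 12, LINC01116 among them at 322, and more than 1000 in 5 (LINC00205, LINC00963, LINC02593, LINC02604 and LINC01355), so these windows need not be at the start used in these cells. Their windows held a median of 20 CpG dinucleotides, against 14 in all 35116 windows of the table and 27 in those of 9451 expressed protein-coding genes. GGGCGG was present in 64.9% of the members' windows and 45.0% of all windows, CCAAT in 50.9% and 34.6%, and TATAAA in 12.3% and 11.5%. In the windows of expressed protein-coding genes the shares were 72.5% for GGGCGG, above that of the members, 5.27% for TATAAA and 37.2% for CCAAT, both below it. TGACTCA, the letters of an AP-1 site, was present in 8.77% of the members' windows and 4.95% of all windows, and CACGTG, the letters of an E-box, in 5.26% and 7.26%. All were searched on both strands. The 6 higher members with a window had a median of 7.5 CpG dinucleotides, the 16 lower members 24 and the other 35 members 20. LINC00707, LINC00052 and LINC01194, the members with the highest ratios, had no window. With windows more than 1000 bases from the deposited start left out, 4 higher members had a median of 7.5, 14 lower members 24 and 34 others 19. Among expressed protein-coding genes the medians were 26 for higher and 28 for lower. GGGCGG was found in 14 of the 16 lower members and 2 of the 6 higher ones, and CCAAT in 4 and 5. Without the windows more than 1000 bases off, GGGCGG was in 12 of 14 lower and 2 of 4 higher members, and CCAAT in 3 and 3. Among expressed protein-coding genes GGGCGG was in 74.0% of the lower and 68.2% of the higher windows, and CCAAT in 32.4% and 37.9%.

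**Figure D5:**
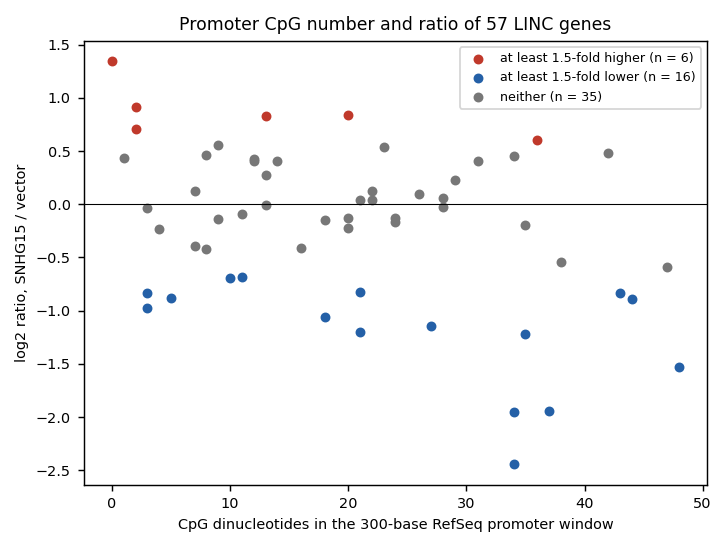
Number of CpG dinucleotides in the 300-base RefSeq promoter window (x axis) against the log2 ratio, SNHG15 over vector (y axis), for the 57 LINC genes with a window. Of the 6 higher members (red) 2 have 20 or more CpG dinucleotides, against 10 of the 16 lower members (blue), and both groups range widely.

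A list of 27 LINC genes with a reported role or small protein had 19 genes in the table under those symbols, 13 of them members. Another 7 were in the table under newer symbols and so were no members, among them CYTOR (LINC00152), which was lower, and NORAD (LINC00657), which was neither. With the newer symbols counted, 19 listed genes reached the floor, and 36.8% of them were called. Of the 13 members 6 were called, or 46.2%, beside 38.6% of all 70 members and 25.5% of all genes at the floor. LINC00707 and LINC01578 were higher, LINC00511, LINC00941, LINC00963 and LINC01116 were lower, and 7 were neither. The 7 included LINC00665, reported to encode a small protein in triple-negative breast cancer, with 436 and 380 counts and a ratio of 1.33 (1.15 to 1.53). LINC00460, induced in several carcinomas, had 61 and 95 counts and a ratio of 0.743 (0.530 to 1.04). LINC00857 had 192 and 247 counts and a ratio of 0.900 (0.741 to 1.09). LINC00472, reported as a suppressor in breast cancer, had 28 and 24 counts and a ratio of 1.35 (0.755 to 2.43). LINC00467 and LINC00662 had ratios of 1.13 and 0.856.

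Among 38 listed long non-coding genes, 31 were in the table and 24 at the floor, counting LINC01578 under its newer symbol CHASERR. Of these, 4 were higher with SNHG15 and LINC01578 included, 4 were lower and 16 were neither. SNHG15 was overexpressed by design, so its call is no result. Without it and LINC01578, 22 genes were left, 2 of them higher, 4 lower and 16 neither. Of all genes at the floor, 13.2% were higher and 12.2% lower. Besides SNHG15, the host gene GAS5 was beyond 2-fold higher (2383 and 1272 counts, ratio 2.17, 2.03 to 2.32). The RNA genes of the RNase MRP and RNase P complexes were beyond 2-fold lower, RMRP with 53 and 229 counts and RPPH1 with 69 and 258.

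Near the floor, the members with the fewest counts were LINC00205 (22 and 18), LINC00707 (41 and 1), LINC00899 (9 and 34) and LINC01291 (4 and 39). Just outside lay LINC00174 (14 and 25), LINC01304 (19 and 20), LINC00115 (13 and 25) and LINC00882 (15 and 22).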

How the data were processed

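Total RNA of BT549 cells was made into Illumina libraries, 1 per group, per the labels' protocols. The reads were placed on hg38, per the submitters' processing notes, and the sources used here name no aligner, counter, annotation release or use of strand. The deposited table gives whole-number counts per gene and FPKM values by the authors, with log2 fold changes and p-values beside them, per the file headers. The deposited p-values equal edgeR's exact test with an assumed coefficient of variation of 0.1, within 1e-10 on the log10 scale for all 19029 genes.

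The members and gene lists were chosen with earlier results of these data known. Counts were scaled by TMM in edgeR 4.0.16 (R 4.3.3), with factors of 1.04 (SNHG15) and 0.960 (vector). DESeq2 1.42.0 size factors and library totals were alternatives. Each ratio has a 95% exact conditional binomial (Clopper-Pearson) interval, computed for the whole table. The interval covers counting error only, since the table does not mark duplicate reads. log2 ratios used a prior count of 2. Gene types, exonic length and GC content came from GENCODE 29, in which all 70 members were found by identifier, 60 at the same locus and 55 typed lincRNA. A neighbour was the nearest protein-coding gene whose mean reached 1 CPM, by the loci deposited. Promoter windows are RefSeq's, GRCh38.p14. Genes named are the members beyond 2-fold, the 10 highest by CPM and by FPKM, the 10 highest and lowest by the interval bound nearest to 1, listed members, members on the same strand as or divergent from an expressed protein-coding gene, those next to the floor, and their neighbours. Other members and genes named beside a result (LINC02035, LINC02593, LINC00957, LINC01615, LINC02084, LINC02381 and the like) were chosen after their values were seen. No test between the groups was made, because each has 1 library.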

Additional observations from a re-analysis of the deposited data

How the results depend on the processing

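No paired analysis was possible because each group has 1 library and no test was made. With DESeq2 size factors, library totals, the deeper library thinned, a mean of at least 1 CPM, no same-strand overlap, or centring on the chromosome median (chosen after seeing the data), every count of calls stayed within 1.5 times its value. The median log2 ratio stayed between -0.19 and 0.08 over all alternatives, and the share of neighbours on the same side of 1 between 60% and 63.5%. The count floor mattered most. With at least 1 count, 279 genes gave 8 beyond 2-fold (3 higher) and 52 at least 1.5-fold different (20 higher, 32 lower). With 100 counts or more, 38 genes gave 1 beyond 2-fold (0 higher, 1 lower) and 12 at least 1.5-fold different (4 higher, 8 lower). By bands, 0 of 26 members from 100 to under 300 counts were beyond 2-fold, against 5.27% of all genes there. From 300 to under 1000 counts 1 of 11 was, against 4.72%, and from 1000 counts 0 of 1, against 3.41%. Of all genes in these 3 bands, 20.5%, 13.8% and 6.46% were at least 1.5-fold higher, and 13.1%, 10.6% and 11.9% lower. Fewer or more genes enter by construction. No share of all genes was computed for the floor of 1 count, for that of 100 counts as a whole, or after centring. Of the 45 members that overlap no gene on either strand, 2 were beyond 2-fold (1 lower) and 11 were at least 1.5-fold lower. By the point ratio alone, 15 members were past 2-fold (4 higher, 11 lower), and the share of all genes by this rule was not computed. Of single members, DESeq2 size factors added LINC00667 (0.665) to the 1.5-fold calls and library totals added LINC01547 (1.53), LINC01606 (1.51), LINC01963 (1.67) and LINC02762 (1.52). Spread between cultures cannot be told from these libraries, and 32 members have fewer than 100 counts.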
